A study of Mus musculus with 5 samples.

Results

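The genes described here are 45 genes whose products detect damaged DNA or repair it. They were chosen by name and not by their signals, although earlier results of these data were known when the choice was made. The genes come from 8 pathways: sensors and checkpoint kinases, homologous recombination, the Fanconi anemia pathway, non-homologous end joining, base excision and single-strand break repair, mismatch repair, nucleotide excision repair, and DNA polymerases. The array annotation names a probe for 44 of them, of 19057 genes in all, and for Xrcc2 it names none. Their mRNA was measured in total bone marrow of male BALB/c mice, an inbred strain, 7 to 8 weeks old, in sham-irradiated marrow (0 DAI, days after irradiation) and on day 3, day 7, day 11 and day 21 after exposure. The irradiated mice had received 4 Gy of gamma-rays to the whole body in a single dose from a cobalt source, and the sham-irradiated mice were handled without radiation and serve as the only control. Marrow came from both tibias, no engineered allele is named, and the methods leave unclear whether an array holds the RNA of 1 mouse or of several.

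There was 1 array for each of the 5 times, so no value below has a replicate error and no test between times was possible. Signals are the authors' background-subtracted intensities, scaled to a common mean on each array. Signals below 64 were set to 64, called the floor here. Between 29.8% and 30.5% of the probes on each array lay above it. A gene was called higher or lower where its log2 ratio to the 0 DAI array was at least 1 in size (2-fold), and where either signal was under the floor the ratio is only a bound. The same 0 DAI array enters every ratio. Signals of different probes depend on the probe sequence as well as on the mRNA, so levels are compared between arrays and not between genes.

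Ionizing radiation breaks DNA on one or both strands and oxidizes bases. Double-strand breaks are bound by the Mre11-Rad50-Nbn complex, which activates the kinase Atm, while single-stranded DNA coated by replication protein A activates Atr. The breaks are then joined directly by non-homologous end joining or copied from the sister chromatid by homologous recombination, and damaged bases are cut out by glycosylases and refilled in base excision repair. Much of this response acts through modification of proteins already present, and several repair genes are also expressed with the cell cycle, so the mRNA level is only 1 layer of the response. The arrays start at 3 DAI, days after the breaks were made, and they describe marrow in which the mix of cells was also different from that of the control.

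Of the 44 genes, 36 (81.8%) passed the floor on at least 1 of the arrays, against 46.6% of all genes, and 29 were above it on all 5. The remaining 8 were under the floor on every array and are described no further: Atr and Mdc1 among the sensors, Nbn of the Mre11 complex, Fanca, the end-joining genes Xrcc4, Xrcc5 and Prkdc, and the glycosylase Ogg1. A signal under the floor does not show that an mRNA was missing from the marrow, since a probe can bind poorly. Fancc passed the floor only at 21 DAI, Lig4 at 7 and 21 DAI, and Chek1 at 3 and 11 DAI. Ercc1 and Ercc2 passed it at all times other than 7 DAI, Neil1 at all times other than 3 and 7 DAI, and Neil3 at all times other than 11 DAI.

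At each time most repair genes with a ratio lay within 2-fold of the 0 DAI array, as most of all genes did. At 3 DAI, 3 of 34 genes with a ratio were called higher, Polh, Lig3 and Apex1, where 5.56% of all genes were, and 1 was called lower, Neil1, where 4.19% were. At 7 DAI none of 34 was called higher, where 4.09% of all genes were, and Neil1 was again called lower, where 3.40% were. At 11 DAI Polh and Lig3 were called higher, of 34 genes and against 6.00% of all genes, and none was called lower against 5.21%. At 21 DAI Lig4 alone, of 35, was called higher against 2.56%, and none was called lower against 3.69%. In all, 5 of 36 repair genes (13.9%) were called at 1 or more times, and 21.7% of all genes above the floor were. Differences under 2-fold were thus the rule in this group and over all genes, with 30 of 34 and 7645 of 8471 within 2-fold at 3 DAI.

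The split of the calls depended on the scaling. With quantile normalization and with a common median, 2 repair genes were called higher at 3 DAI (Lig3 and Polh) and 2 lower (Neil1 and Neil3), since Apex1 was just under 2-fold at 0.96 and 0.94. At 11 DAI both scalings left none called higher and 1 called lower, Neil3, with Lig3 at 0.95 and 0.92 and Polh at 0.99 and 0.91. With a common median the shares of all genes called higher were 4.57%, 2.71%, 4.21% and 1.51% in order of time, and those called lower were 5.24%, 4.36%, 6.48% and 4.63%. The scaling thus moved the balance for all genes in the same direction as for the repair genes.

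**Figure D1:**
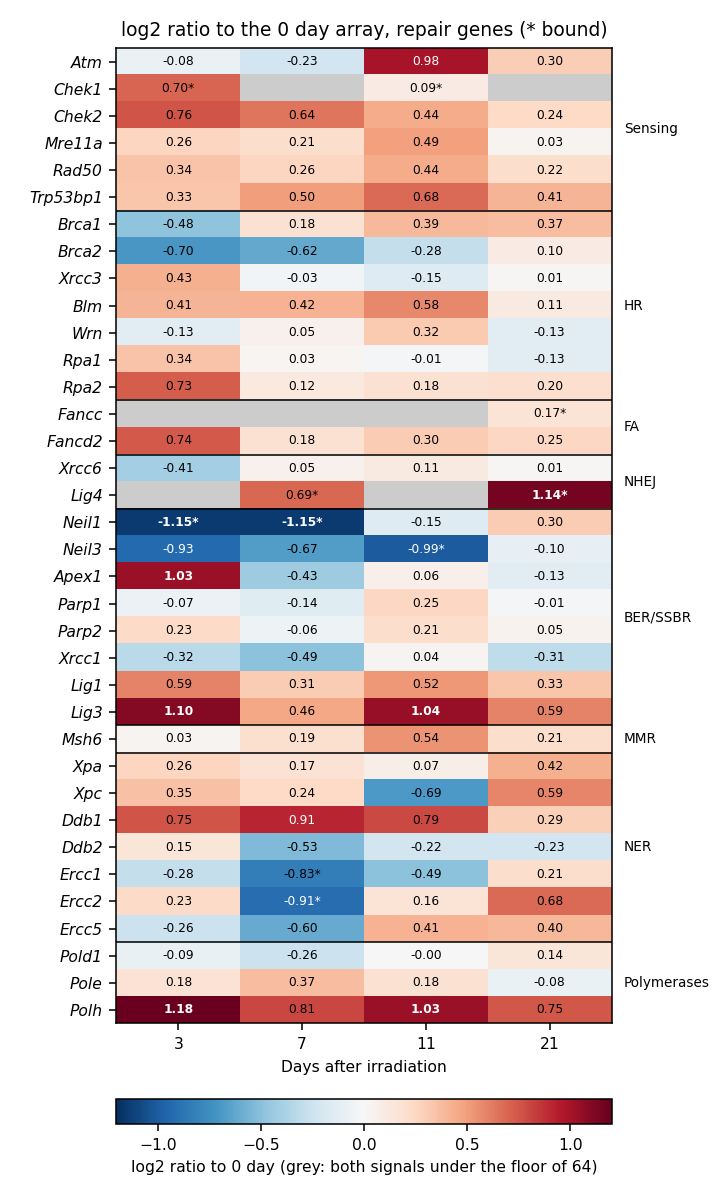
Log2 ratio of each repair gene to the 0 DAI array at 3, 7, 11 and 21 DAI (columns), for the 36 genes above the floor on at least 1 array (rows, grouped by pathway). Red is higher and blue lower than 0 DAI, grey has no ratio, an asterisk marks a bound and bold marks a size of at least 1. HR is homologous recombination, FA Fanconi anemia, NHEJ non-homologous end joining, BER/SSBR base excision and single-strand break repair, MMR mismatch repair and NER nucleotide excision repair. Most cells lie between -1 and 1, and only Polh, Lig3, Apex1, Neil1 and Lig4 hold bold values.

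The promoters of the 4 genes called at 3 DAI are shown because these genes carry the largest differences at that time. Each window runs, in the direction of the gene, from 250 bases before to 50 bases after a start in the RefSeq table for GRCm38.p6. That start is not always the outer end of the gene, and the Neil1 window lies inside the span given for that gene below. Capitals mark matches to the motifs searched, counted on either strand: CCAAT, the E2F-type octamers TTTCCCGC, TTTCGCGC, TTTGCCGC and TTTGGCGC, and the p53 decamer. TTTGAA, the CHR element of cell cycle genes, was searched as well. E2F factors act on genes of the S phase, and p53 acts on damage response genes.
Apex1, chr14:50924699-50924998, plus strand: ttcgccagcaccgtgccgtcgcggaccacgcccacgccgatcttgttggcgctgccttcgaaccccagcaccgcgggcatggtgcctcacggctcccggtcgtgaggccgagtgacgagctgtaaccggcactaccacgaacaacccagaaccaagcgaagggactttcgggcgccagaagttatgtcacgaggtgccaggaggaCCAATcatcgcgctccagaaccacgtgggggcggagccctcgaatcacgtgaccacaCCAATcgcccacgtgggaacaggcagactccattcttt
Lig3, chr11:82780859-82781158, plus strand: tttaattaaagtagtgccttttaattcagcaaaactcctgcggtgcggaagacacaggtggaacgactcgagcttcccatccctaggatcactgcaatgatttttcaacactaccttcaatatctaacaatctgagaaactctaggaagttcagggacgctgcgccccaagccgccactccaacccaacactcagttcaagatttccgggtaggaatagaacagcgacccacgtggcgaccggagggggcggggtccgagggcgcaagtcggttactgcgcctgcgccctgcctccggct
Neil1, chr9:57148256-57148555, minus strand: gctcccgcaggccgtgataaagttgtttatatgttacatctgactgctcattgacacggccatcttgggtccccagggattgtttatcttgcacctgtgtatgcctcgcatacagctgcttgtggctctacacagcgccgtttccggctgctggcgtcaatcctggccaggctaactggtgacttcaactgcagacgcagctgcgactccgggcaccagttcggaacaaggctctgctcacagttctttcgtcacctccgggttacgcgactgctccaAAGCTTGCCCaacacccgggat
Polh, chr17:46202592-46202891, minus strand: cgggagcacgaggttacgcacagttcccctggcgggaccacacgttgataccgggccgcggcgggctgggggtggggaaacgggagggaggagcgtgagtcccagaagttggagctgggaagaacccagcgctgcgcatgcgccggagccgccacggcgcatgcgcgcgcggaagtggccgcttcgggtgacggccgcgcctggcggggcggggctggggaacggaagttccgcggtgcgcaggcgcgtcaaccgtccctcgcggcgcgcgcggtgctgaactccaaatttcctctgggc
The Apex1 window held 2 CCAAT boxes, the Neil1 window held 1 p53 decamer, and the Lig3 and Polh windows held none of the motifs. The 2 genes that were high together at 3 and 11 DAI, Lig3 and Polh, thus shared no motif of this set in these windows. A match is a string of letters and not a measured binding site.

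Of the member genes, 36 had a promoter in the table. An E2F-type octamer stood in 7 of these (19.4%), against 2.61% of all 27025 genes in the table and 3.29% of its coding genes. CCAAT stood in 20 (55.6%) against 41.1%, TTTGAA in 1 (2.78%) against 20.2%, and the p53 decamer in 3 (8.33%) against 9.55%. Of the 4 motifs, the E2F-type octamer had the largest ratio of its share in these genes to its share in all genes. The matching windows of Brca2, Lig1 and Xrcc6 lie inside the span of the gene and not at its outer end. The 7 matches are shown with up to 11 bases on either side, the octamer in capitals.
Brca2, chr5:150522442-150522471, plus strand: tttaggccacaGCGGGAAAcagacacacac
Chek2, chr5:110839820-110839849, plus strand: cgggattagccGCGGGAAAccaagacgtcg
Lig1, chr7:13278841-13278870, plus strand: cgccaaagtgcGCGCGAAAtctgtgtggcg
Mdc1, chr17:35841471-35841500, plus strand: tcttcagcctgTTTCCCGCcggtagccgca
Msh6, chr17:87975054-87975083, plus strand: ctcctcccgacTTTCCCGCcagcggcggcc
Pold1, chr7:44548766-44548787, minus strand: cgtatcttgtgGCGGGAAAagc
Xrcc6, chr15:82016312-82016341, plus strand: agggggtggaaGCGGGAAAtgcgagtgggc
Of these 7 genes Mdc1 was under the floor on all arrays. The other 6 had ratios at 3 DAI of 0.76 for Chek2, 0.59 for Lig1, 0.03 for Msh6, -0.09 for Pold1, -0.41 for Xrcc6 and -0.70 for Brca2. Genes with the same octamer, TTTCCCGC, were thus found at both ends of this range.

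Among the sensors and checkpoint genes the ratios were mostly above 0 and none was called, with medians of 0.34, 0.26, 0.47 and 0.24 on the log2 scale at 3, 7, 11 and 21 DAI. The medians of all genes were 0.12, 0.11, 0.12 and 0.17. Atm, the kinase that responds to double-strand breaks (chr9:53437122-53536828), had signals of 319, 301, 272, 631 and 393 at 0, 3, 7, 11 and 21 DAI, the order used for all signals below. The 11 DAI array stood above the other 4, with a log2 ratio to 0 DAI of 0.98, just under the size for a call, and it was 2.32-fold above the 7 DAI array. The other two Atm probes above the floor were also highest at 11 DAI, at 305 and 172, and lowest at 7 DAI, at 107 and 76.2. At 3, 7 and 21 DAI the brighter of these differed from the first, with log2 ratios of -0.78, -0.99 and -0.75 against -0.08, -0.23 and 0.30.

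Mre11a, the nuclease of the break-binding complex, had signals of 725, 868, 837, 1021 and 740 at 0, 3, 7, 11 and 21 DAI. Its partner Rad50, which tethers the broken ends, followed the same order of arrays at its top and bottom, with 494, 626, 591, 672 and 573. Trp53bp1, which binds chromatin beside breaks and favors end joining, had 497, 626, 703, 795 and 660. On their brightest probes all 3 genes were lowest at 0 DAI and highest at 11 DAI, although the log2 ratios at 11 DAI were only 0.49, 0.44 and 0.68. The second Trp53bp1 probe was likewise highest at 11 DAI, where its signal of 216 compared with 108 in the control (log2 ratio 1.00). The second Mre11a probe, with 171, 257, 154, 216 and 161, was instead highest at 3 DAI and lowest at 7 DAI. Chek2, a kinase downstream of Atm, was highest at 3 DAI on its brightest probe, with 129, 217, 201, 175 and 152. Its second probe, with 74.6, 99.6, 51.5, 123 and 36.6, was highest at 11 DAI and under the floor at 7 and 21 DAI, so the order of arrays differed between probes in both Mre11a and Chek2. Chek1, a kinase downstream of Atr, was above the floor only at 3 DAI (104) and 11 DAI (68.3). Its ratio at 3 DAI is a bound of at least 0.70, and it was called higher there with a floor of 32. This rests on 1 of 3 Chek1 probes. The others were under the floor on all arrays, the brighter of them with 13.7 and 14.7 at 0 and 3 DAI.

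The homologous recombination genes had medians of 0.34, 0.05, 0.18 and 0.10 at the 4 times, and none of the 7 was called. The signals of Rpa1, the large subunit of the single-stranded DNA binding protein RPA, were 6302, 7988, 6412, 6238 and 5761, with the 3 DAI array highest. Rpa2, the middle subunit of the same complex, was also highest at 3 DAI on its brightest probe, with 560, 927, 607, 634 and 642, but its second probe was nearly level between 0 and 3 DAI at 485 and 477. The dimmest Rpa2 probe was highest at 0 DAI, with 141, 94.5, 60.9, 102 and 81.9, and past 2-fold lower at 7 DAI (-1.14 or lower), so the 3 probes had no common direction. Brca2, a mediator of strand exchange, was lower at 3 and 7 DAI (96.4 and 102) than at 0 and 21 DAI (156 and 167). Brca1, a ubiquitin ligase that promotes end resection, had its lowest signal at 3 DAI, 68.2 against 95.3 at 0 DAI. The Blm helicase, which dissolves recombination intermediates, was lowest at 0 DAI (947) and highest at 11 DAI (1415) on its brightest probe, and the related helicase Wrn was highest at 11 DAI (966). Xrcc3, which acts in the same pathway, lay between 110 and 165 on all arrays. At 3 DAI 4 of the 7 genes of this pathway (57.1%) were above 0 DAI and 3 below it. Of all genes 60.0% were above 0 DAI at that time, so the split was near that of all genes.

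In the Fanconi anemia pathway, which repairs crosslinks between the DNA strands, Fancd2 is the subunit that is ubiquitinated at the lesion. Its signals were 300, 500, 340, 370 and 356, and the second probe had 186, 293, 273, 244 and 217. Both probes were lowest at 0 DAI and highest at 3 DAI, with log2 ratios of 0.74 and 0.65 there. Fancc, a subunit of the core complex, was under the floor at 4 of 5 times and reached 71.8 at 21 DAI.

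For non-homologous end joining, 2 of the 5 genes with a probe gave a ratio at any time. Xrcc6, which encodes the Ku70 protein that caps broken ends, had signals of 5472, 4114, 5671, 5892 and 5520. It was lowest at 3 DAI, and its second probe was too, with log2 ratios of -0.41 and -0.60, while the dimmest probe had 0.14. Lig4, the ligase that seals the joined ends (chr8:9970020-9977680), had 27.7, 33.4, 103, 59.6 and 142. Only the 7 and 21 DAI arrays passed the floor, and the 21 DAI signal was at least 2.21-fold above 0 DAI (log2 ratio of at least 1.14). Lig4 has 1 probe, and this call rests on a control signal below the floor.

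Base excision and single-strand break repair, with 8 genes that had a ratio at each time, held calls in both directions, in Lig3, Apex1 and Neil1. At 3 DAI 2 were called higher and 1 lower, at 7 DAI 1 lower, at 11 DAI 1 higher and at 21 DAI none. Over all genes 5.56%, 4.09%, 6.00% and 2.56% were called higher in order of time, and 4.19%, 3.40%, 5.21% and 3.69% lower. Lig3, the ligase that works with Xrcc1 and also seals mitochondrial DNA (chr11:82781109-82804274), had signals of 334, 717, 459, 687 and 504. It was 2.15-fold above 0 DAI at 3 DAI and 2.06-fold at 11 DAI (log2 ratios of 1.10 and 1.04). The second Lig3 probe had 303, 335, 497, 472 and 495. Both probes were lowest at 0 DAI, but the second had a log2 ratio of only 0.14 at 3 DAI, so the size at that time depends on the probe. The remaining Lig3 probes were under the floor on all arrays, so they count as no difference in an average over all 5 probes. In that average Lig3 was not called at either time, with 0.25 at 3 DAI and 0.34 at 11 DAI. Because those probes pull the average down, the loss of the call does not tell whether the 2 measured probes differ from 0 DAI.

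Apex1, the endonuclease that cuts DNA at sites with a lost base (chr14:50924949-50927188), had signals of 221, 452, 164, 231 and 202 from its 1 probe. The 3 DAI array alone was high, 2.05-fold above 0 DAI and 2.75-fold above the 7 DAI array. Neil1, a glycosylase for oxidized bases (chr9:57142788-57148688), had 142, 22.3, 60.7, 127 and 175. The 3 and 7 DAI arrays were under the floor, which puts the log2 ratio at -1.15 or lower at both times, and at 11 and 21 DAI the ratios were -0.15 and 0.30. Neil3, a glycosylase of the same family, was also below 0 DAI at 3 and 7 DAI, with 127, 66.8, 80.1, 47.4 and 119, and unlike Neil1 it was lowest at 11 DAI, where its ratio of -0.99 or lower is a bound just short of the size for a call.

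The strand-break sensor Parp1 had signals of 3491, 3319, 3158, 4149 and 3465, within 1.5-fold of one another. Its second probe was within 1.5-fold as well, from 1492 to 2051, but its dimmest had 54.7, 168, 89.6, 189 and 124, with log2 ratios of at least 1.39 at 3 DAI and 1.56 at 11 DAI. Parp2, a related polymerase, lay between 2040 and 2495, and the scaffold protein Xrcc1 between 540 and 778. Lig1, the ligase of DNA replication, was lowest at 0 DAI and highest at 3 DAI on its brightest probe (2498 and 3772), while its second probe was highest at 0 DAI (642) and lowest at 21 DAI (368). Probes of Lig1 therefore differed in direction, and the gene has no single order of arrays.

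**Figure D2:**
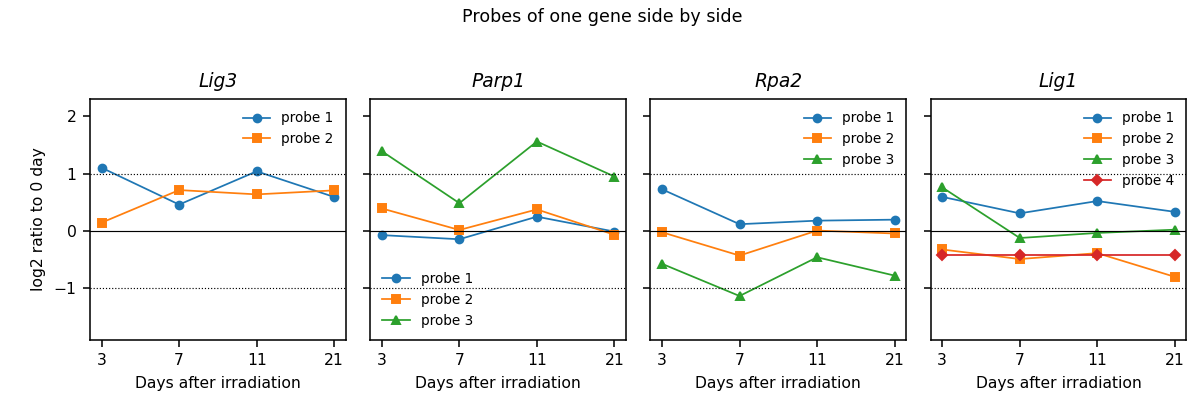
Log2 ratio to the 0 DAI array at 3, 7, 11 and 21 DAI for each probe above the floor on at least 1 array, in Lig3, Parp1, Rpa2 and Lig1. Probes are numbered from the brightest and dotted lines mark 2-fold. Values with a signal under the floor, such as all of Parp1 probe 3 and Lig1 probe 4, are bounds, and the Lig1 and Rpa2 probes lie on both sides of 0.

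Msh6, the mismatch recognition subunit and the 1 mismatch repair gene of the set, had signals of 2487, 2543, 2843, 3620 and 2877. The second probe, with 2270, 2476, 2657, 2991 and 2593, had the same lowest array (0 DAI) and the same highest array (11 DAI). The log2 ratios at 11 DAI were 0.54 and 0.40.

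Nucleotide excision repair removes bulky lesions in steps of recognition, unwinding and cutting, and its 7 genes had medians of 0.23, -0.53, 0.07 and 0.40. Of the recognition factors, Xpc (chr6:91489305-91515888) had signals of 2726, 3475, 3226, 1695 and 4094. It was lowest at 11 DAI and highest at 21 DAI, 2.41-fold apart, and the second probe had the same extremes (109 and 236). Ddb1, the adaptor of the ligase complex that marks ultraviolet lesions, had 329, 555, 619, 570 and 402, with every irradiated array above 0 DAI and a highest log2 ratio of 0.91 at 7 DAI. Its partner Ddb2, a p53 target in human cells, had 333, 369, 231, 286 and 283, lowest at 7 DAI. Xpa, which verifies the lesion, lay between 585 and 785.

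The unwinding and cutting genes were lowest at 7 DAI on their brightest probes. Ercc2, a helicase of the transcription factor TFIIH (chr7:19382017-19395694), had signals of 120, 141, 54.0, 135 and 193, so the 21 DAI array was at least 3.01-fold above the 7 DAI array. Ercc1, a subunit of the nuclease that cuts 5' of the lesion (chr7:19344067-19356524), had 114, 93.6, 60.1, 80.9 and 131, at least 2.05-fold apart. Ercc5, the nuclease that cuts on the 3' side (chr1:44146948-44181260), had 379, 316, 249, 505 and 498, and its highest and lowest arrays were 2.03-fold apart. None of the 3 was called against 0 DAI, but at 7 DAI the ratios of Ercc2 and Ercc1 are bounds, of -0.91 or lower and -0.83 or lower, and Ercc2 was called lower there with a floor of 32 and with a common median. The second Ercc5 probe was lowest at 0 DAI and not at 7 DAI (221 and 245).

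Polh, a polymerase that copies past ultraviolet lesions (chr17:46171355-46202641), had signals of 177, 402, 309, 362 and 297 from its 1 probe. All 4 irradiated arrays were above 0 DAI, by 2.27-fold, 1.75-fold, 2.05-fold and 1.68-fold in order of time. The replicative polymerase subunits moved less, with Pold1 at 3504, 3287, 2936, 3493 and 3866 and Pole between 436 and 595. When the baseline was instead taken from the remaining irradiated arrays, the Polh log2 ratio was 0.32 at 3 DAI and 0.12 at 11 DAI, so most of its difference is that between the irradiated arrays as a group and the 0 DAI array.

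**Figure D3:**
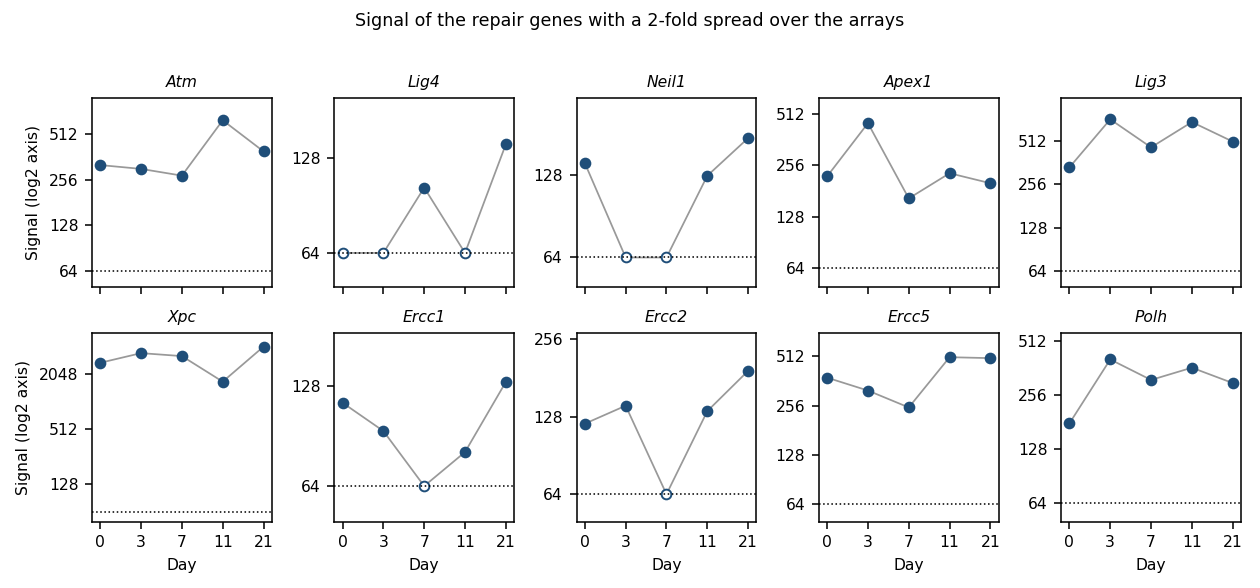
Signal on the 5 arrays (day 0, 3, 7, 11 and 21, evenly spaced) of the 10 repair genes whose highest and lowest arrays differ by at least 2-fold, on a log2 axis that differs between panels. The dotted line is the floor of 64 and open circles are signals raised to it. Apex1 is high at day 3 only, Atm is highest at day 11, and Neil1, Ercc1 and Ercc2 are lowest at day 3 or 7.

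Across all 5 arrays, 10 of the 36 repair genes (27.8%) differed by at least 2-fold between the highest and the lowest array, against 32.2% of all genes. They were Atm, Lig4, Neil1, Apex1, Lig3, Xpc, Ercc1, Ercc2, Ercc5 and Polh, and the median spread was 1.61-fold for the repair genes and 1.69-fold for all genes. Among the 29 repair genes above the floor on every array, the 0 DAI array was the lowest for 13 (44.8%) and the highest for none, where it was the lowest for 27.7% and the highest for 9.60% of all genes. By their brightest probes the 13 were Chek2, Mre11a, Rad50, Trp53bp1, Blm, Rpa2, Fancd2, Lig1, Lig3, Msh6, Xpa, Ddb1 and Polh. The highest array was that of 3 DAI for 11 of the 29 (37.9%) and that of 11 DAI for 12 (41.4%), against 20.5% and 27.7% of all genes. With quantile normalization or with a common median the 0 DAI array was the lowest for 8 of the 29 (27.6%), against 20.2% and 17.4% of all genes, so the count depends on the scaling.

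Over the whole group the median log2 ratios were 0.24, 0.09, 0.19 and 0.21 in order of time, and the ranges were -1.15 to 1.18, -1.15 to 0.91, -0.99 to 1.04 and -0.31 to 1.14. The 21 DAI array had the narrowest range below 0, with 27 of 35 genes (77.1%) above the control, against 66.1% of all genes. At 7 DAI the median turned to -0.01 with quantile normalization and -0.04 with a common median, while that of all genes was 0.04 and -0.01, so the group has no settled direction at that time. For 14 repair genes with a pair of probes of mean signal at least 128, the log2 ratios of the pair differed by a median of 0.31, 0.27, 0.16 and 0.15 at the 4 times, and by 0.25, 0.24, 0.23 and 0.25 over 2088 such genes. At 3 and 7 DAI these differences exceeded the group medians. The paired probes had the same sign in 9, 8, 13 and 10 of the 14, and in 1545, 1497, 1623 and 1461 of the 2088.

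The other genes of these pathways, 98 with a named probe, also lay mostly within 2-fold of the 0 DAI array. At 3 DAI 2 of 78 were called higher and 2 lower, at 7 DAI 2 of 77 higher and 5 lower, at 11 DAI 5 of 79 higher and 1 lower, and at 21 DAI 1 of 79 higher and 2 lower. Over all genes, in the same order of times, 5.56%, 4.09%, 6.00% and 2.56% were called higher and 4.19%, 3.40%, 5.21% and 3.69% lower. The 5 of 77 called lower at 7 DAI were a larger share than that of all genes. Their medians were 0.09, 0.05, 0.18 and 0.13. Mgmt, which removes alkyl groups from guanine, had signals of 160, 539, 155, 168 and 182 and was high at 3 DAI only, with a log2 ratio of 1.75. Among the base excision genes, the glycosylase Smug1 had 58.9, 82.0, 195, 178 and 215, with ratios of at least 1.61, 1.48 and 1.75 at 7, 11 and 21 DAI. The gap-filling polymerase Polb had 178, 103, 61.4, 104 and 76.2, with a ratio of at most -1.47 at 7 DAI and of -1.22 at 21 DAI, and the glycosylase Mbd4 had a ratio of -1.08 at 3 DAI. These 3 genes of base excision repair thus differed in direction, as the members of that pathway did.

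Besides Polb, the lower calls at 7 DAI were in genes of checkpoint signaling and recombination. The checkpoint activator Topbp1 had signals of 312, 208, 96.9, 133 and 198, with log2 ratios of -1.69 at 7 DAI and -1.23 at 11 DAI. Bard1, the partner of Brca1, had -1.62 at 7 DAI and -1.26 at 21 DAI, and Smc5 and Smc6, a pair of proteins that form one complex on chromatin, had -1.05 and -1.55 at 7 DAI. Besides Smug1, the higher calls at 11 DAI included Rad1 (1.19), a subunit of the checkpoint clamp, Uimc1 (1.01), which brings Brca1 to breaks, and Ercc8 (1.14), of transcription-coupled repair. In end joining, Polm had a ratio of at most -1.80 at 3 DAI, and Dntt, the template-independent polymerase of lymphocyte precursors, had 47.6, 227, 374, 65.4 and 111, with at least 1.82 at 3 DAI and 2.55 at 7 DAI. Dntt is also on the list of B lymphoid markers below.

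The make-up of the marrow differed between the arrays, and fewer cells of a type cannot be told apart from less RNA per cell in these samples. The summed signal of B lymphoid markers at 3, 7, 11 and 21 DAI was 0.415, 1.17, 1.38 and 1.18 times that at 0 DAI (11 of 13 markers above the floor, with Pax5 and Rag2 under it on all arrays). For erythroid markers it was 0.718, 1.07, 0.847 and 0.651 times (11 of 12, without Epb42), and for stromal markers 8.32, 0.973, 0.873 and 0.560 times (10 of 12, without Lepr and Kitl). For macrophage markers it was 2.37, 1.29, 0.755 and 1.25 times (7 of 9, without Cd5l and Marco), and for megakaryocyte markers 3.86, 0.215, 2.25 and 1.10 times (5 of 5). The 3 DAI array thus had a low summed B lymphoid and a high summed stromal, macrophage and megakaryocyte signal.

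A sum is set by its brightest genes, and in several lists the members differed. Of 11 B lymphoid markers with a ratio at 3 DAI, 8 were below 0 and 3 above it: the precursor genes Vpreb1 (1.19) and Igll1 (0.93), which form the surrogate light chain, and Dntt (at least 1.82). At 7 DAI, where the sum was 1.17 times 0 DAI, 6 of the 11 were below 0 and the median log2 ratio was -0.13. Igll1 was at 2326 and 11704 on the 0 and 7 DAI arrays. Of 7 macrophage markers with a ratio at 11 DAI, where the sum was 0.755 times 0 DAI, 4 were above 0 and 3 below it. The erythroid sum was held up by Hba-a1, with 45600 at 0 DAI and 49342 at 21 DAI, while 10 of 11 erythroid markers were called lower at 21 DAI and the list's median log2 ratio was -1.92.

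T and NK markers were at 0.639, 0.619, 0.728 and 0.771 times 0 DAI (10 of 10), with Prf1 at 18140 and 3546 on the 0 and 3 DAI arrays, but their median log2 ratios were 0.75, -0.40, 0.60 and -0.24, so sum and median differed in direction at 3 and 11 DAI. Neutrophil precursor markers were at 1.31, 0.839, 1.02 and 1.26 times (6 of 6), and later neutrophil markers were at 0.836, 1.04, 0.883 and 0.986 times (10 of 10). The later neutrophil sum was led by probes near the top of the scale, which may show little difference. Ltf at 11 DAI, with 50747, was the highest signal of its array. The median log2 ratios of this list were -0.39, 0.10, -0.15 and 0.02. All 10 markers were below 0 at 3 DAI, with Mmp8 at -1.76, and 6 of 10 were above 0 at 7 DAI, with Cxcr2 at 1.10. Myeloid, erythroid and lymphoid markers were thus present on these arrays, as the tissue label requires. Genes of replication and mitosis, with 28 of 31 above the floor and without Ccnb2, Bub1 and Cenpe, were at 1.19, 0.948, 1.08 and 1.02 times, and their median log2 ratios were 0.35, 0.04, 0.16 and 0.10. Beside these stand the medians of 0.24, 0.09, 0.19 and 0.21 of the repair genes, from the same arrays and the same control. The p53 targets were at 0.795, 0.866, 0.537 and 0.686 times (14 of 17, without Aen, Perp and Eda2r). Their sum was led by Gadd45a, with 7719 and 2440 at 0 and 3 DAI, while Cdkn1a had 584 and 2669 (log2 ratio 2.19). At 3 DAI 3 of 14 targets were called higher and 2 lower, where 5.56% and 4.19% of all genes were. The median log2 ratios of the targets were 0.24, 0.30, -0.52 and -0.05. At 3 and 7 DAI, 8 of 14 and 8 of 12 targets were above 0. The part of cell make-up and cell cycle in the ratios of the repair genes was not tested.

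**Figure D4:**
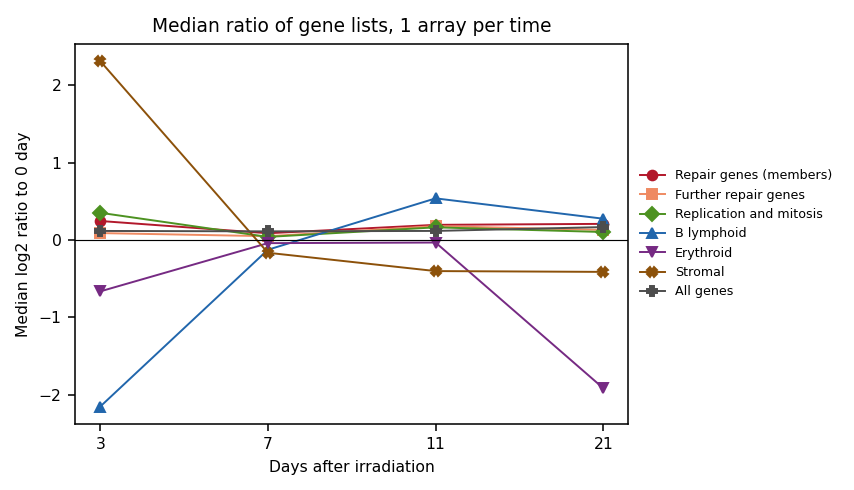
Median log2 ratio to the 0 DAI array of the repair genes, of further repair genes, of marker lists and of all genes (lines) at 3, 7, 11 and 21 DAI, evenly spaced, with 1 array per time and no error bars. The repair genes stay between 0.09 and 0.24, near all genes at 0.11 to 0.17, while the B lymphoid list is lowest and the stromal list highest at 3 DAI.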

How the data were processed

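RNA from total bone marrow was amplified to biotin-labelled cRNA and hybridized to Illumina MouseWG-6 BeadChips, 1 array for each of 5 times. The authors read the arrays with GenomeStudio 2010.2, per the submitters' processing notes, and the deposited values are background-subtracted intensities on a linear scale after average normalization. No further scaling was applied. A further table, unscaled and with detection values, has 10 columns that no label ties to a sample, and was left out. Depth does not apply to arrays, and their number limits the precision.

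Of 45281 probes, 34885 have 1 gene symbol in the platform annotation, 18 have several and 10378 are not listed, and only the first group was named. The probe with the highest mean signal stood for a gene. Signals were raised to a floor of 64 and log2 ratios to 0 DAI were taken where at least 1 signal was above it. Genes were called at 2-fold, without a p-value, and the script was tested on simulated data.

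Signals on all 5 arrays are given for members called at any time, members with a 2-fold spread over the arrays and the brightest member of each pathway, and further repair genes are named where called, except 1 that is counted but not reported here. Other members were added where their values were of use in describing a pathway, after the values were seen. The members, the further repair lists and the marker lists were chosen with earlier results of these data known. The alternatives tried were quantile normalization, a common median, floors of 32 and 100, a pseudocount of 50, the other irradiated arrays as baseline, calling at 1.5-fold or at 3-fold, and averaging a gene's probes. The average takes in probes under the floor on every array, 39 of the 101 member probes, and these count as no difference. A filter on a mean signal of 64, and the scaling alternatives for the count of genes lowest at 0 DAI, were added after the values were seen. Promoters and gene positions are those of RefSeq for GRCm38.p6, and 9 of the 45 genes had no matched promoter. Values were computed in Python 3.11.15 with numpy 2.4.6 and pandas 2.3.3, and plots were drawn with matplotlib 3.10.9.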

Additional observations from a re-analysis of the deposited data

How the results depend on the processing

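With 1 array per time, differences between times hold for these arrays, and their error is unknown. No paired analysis was possible because each time has 1 array, and leaving out a replicate was impossible for the same reason. No called ratio changed sign under any alternative. Of 84 recomputed counts and medians 48 stayed close to the reported ones, meaning a count within 1.5-fold or a median within 0.1. A count that stayed close can hold other genes: at 3 DAI with quantile normalization Neil3 was called and Apex1 was not. Of 64 recomputed ratios of called genes, 26 were under 2-fold. Low signals limit the calls of Neil1 and Lig4, which were lost with a floor of 100.

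At 3 DAI the 4 calls became 12 at 1.5-fold, 0 at 3-fold, 2 with the mean over probes, 1 with the other irradiated arrays as baseline and 1 with a pseudocount of 50. At 7 DAI the 1 call became 10 at 1.5-fold, 0 at 3-fold, 2 with a common median, 3 with a floor of 32, and 0 with a floor of 100, with the mean over probes and with a pseudocount of 50. At 11 DAI the 2 calls became 7 at 1.5-fold, 0 at 3-fold, 0 with a pseudocount of 50, and 1 with quantile normalization, with a common median, with the mean over probes and with the other irradiated arrays as baseline. At 21 DAI the 1 call became 5 at 1.5-fold, 0 at 3-fold and 0 with a floor of 100. At 1.5-fold, 16.5%, 15.2%, 18.2% and 14.2% of all genes were called higher in order of time, and 10.7%, 8.25%, 12.5% and 8.02% lower. With the other irradiated arrays as baseline the called genes were others at 3 of the times: Apex1 at 3 DAI, but Ercc2 (lower) at 7 DAI, Xpc (lower) at 11 DAI and Neil1 (higher) at 21 DAI, with Lig4 at 0.92. The medians moved by over 0.1 at 3 DAI to 0.12 with the mean over probes and 0.037 with the other irradiated arrays as baseline, and at 7 DAI to -0.035 with a common median and -0.15 with that baseline. At 11 DAI the median moved to 0.079 with a common median, and at 21 DAI to 0.073 with a common median, 0.082 with quantile normalization and -0.057 with that baseline. A common median multiplies all signals of an array by the same factor. With it the medians of all genes moved as well, from 0.12 to 0.0013 at 11 DAI and from 0.17 to 0.033 at 21 DAI. The 10 genes with a 2-fold spread became 21 at 1.5-fold, 1 at 3-fold, 6 with a floor of 100 and 5 with the mean over probes. The 13 genes lowest at 0 DAI became 8 with quantile normalization and 8 with a common median. Apart from the size rule, the floor, the choice of probe and the common median, whose construction sets these shifts, the cause was not tested.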
